A study of Mus musculus with 38 samples.

Results

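Genes of the contractile, calcium-handling and energy machinery of heart muscle were followed in the lungs of mice given dibenz[a,h]anthracene, a polycyclic aromatic hydrocarbon. The members were 38 genes named for their roles in heart muscle, of which 37 had a probe on the array, among 20018 genes with a symbol and 55681 probes in all. Smpx was not matched to a probe. Each gene was read from its brightest probe, the one with the highest mean Cy5 signal over the lung arrays. All animals were male MutaMouse, a strain carrying a bacterial reporter transgene, aged about 10 weeks, and all received olive oil by gavage daily for 28 days. D0 had the oil alone, D1 had 6.25 mg/kg body weight of dibenz[a,h]anthracene in it each day, D2 had 12.5 and D3 had 25. The animals were killed 72 h after dosing ended. RNA was taken from 5, 5, 4 and 5 mice for lung and, from the same animals, 5, 5, 4 and 4 mice for forestomach. The labels give mouse 18 for 2 forestomach arrays, which were averaged, and no forestomach array is labelled mouse 20. The second of those arrays lay on slide 5 in the column that holds the lung of mouse 20, the 2 arrays differed widely, and whether both are of mouse 18 was not tested, so the D3 forestomach n of 4 rests on the labels. Lung RNA came from a random section of the right lobe of mice that had been bled by cardiac puncture, and bulk RNA cannot tell fewer cells of a type from less RNA per cell.

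Heart muscle contracts through sarcomeres, in which thick filaments of myosin pull on thin filaments of actin held at the Z-disc, and each beat is set by calcium released from and pumped back into the sarcoplasmic reticulum. Atrial and ventricular muscle use partly different isoforms. Myl4, Myl7, Sln and Nppa are typical of atrial muscle, Myl2 is typical of ventricular muscle, and in adult mice Myh6 is the main myosin heavy chain of both. In mice, striated muscle of atrial type also extends from the left atrium along the pulmonary veins into the lung.

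Every array measured tissue RNA in the Cy5 channel against a universal mouse reference RNA in the Cy3 channel, so each value is a log2 ratio of tissue over reference, and a value of 0 means that the gene was as bright in the tissue as in the reference. Of the 37 genes, 15 were well above background in the Cy5 channel on all 19 lung arrays and 22 on some of them. Signals were not background-subtracted, which draws the ratios of dim probes towards 0. Between 41.5% and 63.8% of all probes were well above background on a lung array, and lung arrays of 1 dose group correlated at r = 0.922 to 0.960. Lung epithelium markers averaged 5.04 to 5.92 in every lung, and squamous epithelium markers 2.80 to 3.93 in every forestomach, as their labels state.

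Many of these genes differed by several log2 units between individual lungs of the same dose group. Taking each mouse's deviation from its dose mean, the residual SD over the 19 lungs was 2.24 for Myh6 on the log2 scale, the largest of all 55681 probes on the array. Next among the members came Sln at 1.98, Myl7 at 1.53, Myl4 at 1.52, Tnni3 at 1.30, Mb at 1.22 and Ckmt2 at 1.15. The median was 0.413 for the 37 members against 0.153 for all probes, and 17 members lay above the 99th percentile of all probes, 0.543. Of the 20 probes with the largest residual SD on the array, 6 were members. At the other end stood Nppa at 0.09 and Xirp1 at 0.12.

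The same lungs were high for most of the variable genes. Counted as members at least 1 log2 unit above their median over the 19 lungs, mouse 11 of D2 had 19, mouse 18 of D3 had 17, mouse 17 of D3 had 14, mouse 19 of D3 had 12, mouse 9 of D1 had 11 and mouse 2 of D0 had 5. Mice 3 and 4 of D0 had 1 each, and the other 11 lungs had 0. High lungs therefore lay in every dose group, 3 of the 5 at D3 included, and on slides 1, 2, 3 and 4 of the 5 slides. In the heat map of the 19 lungs the high lungs form columns down the upper rows. Its rows are ordered by residual SD, so the lower rows are flat by that ordering.

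**Figure D1:**
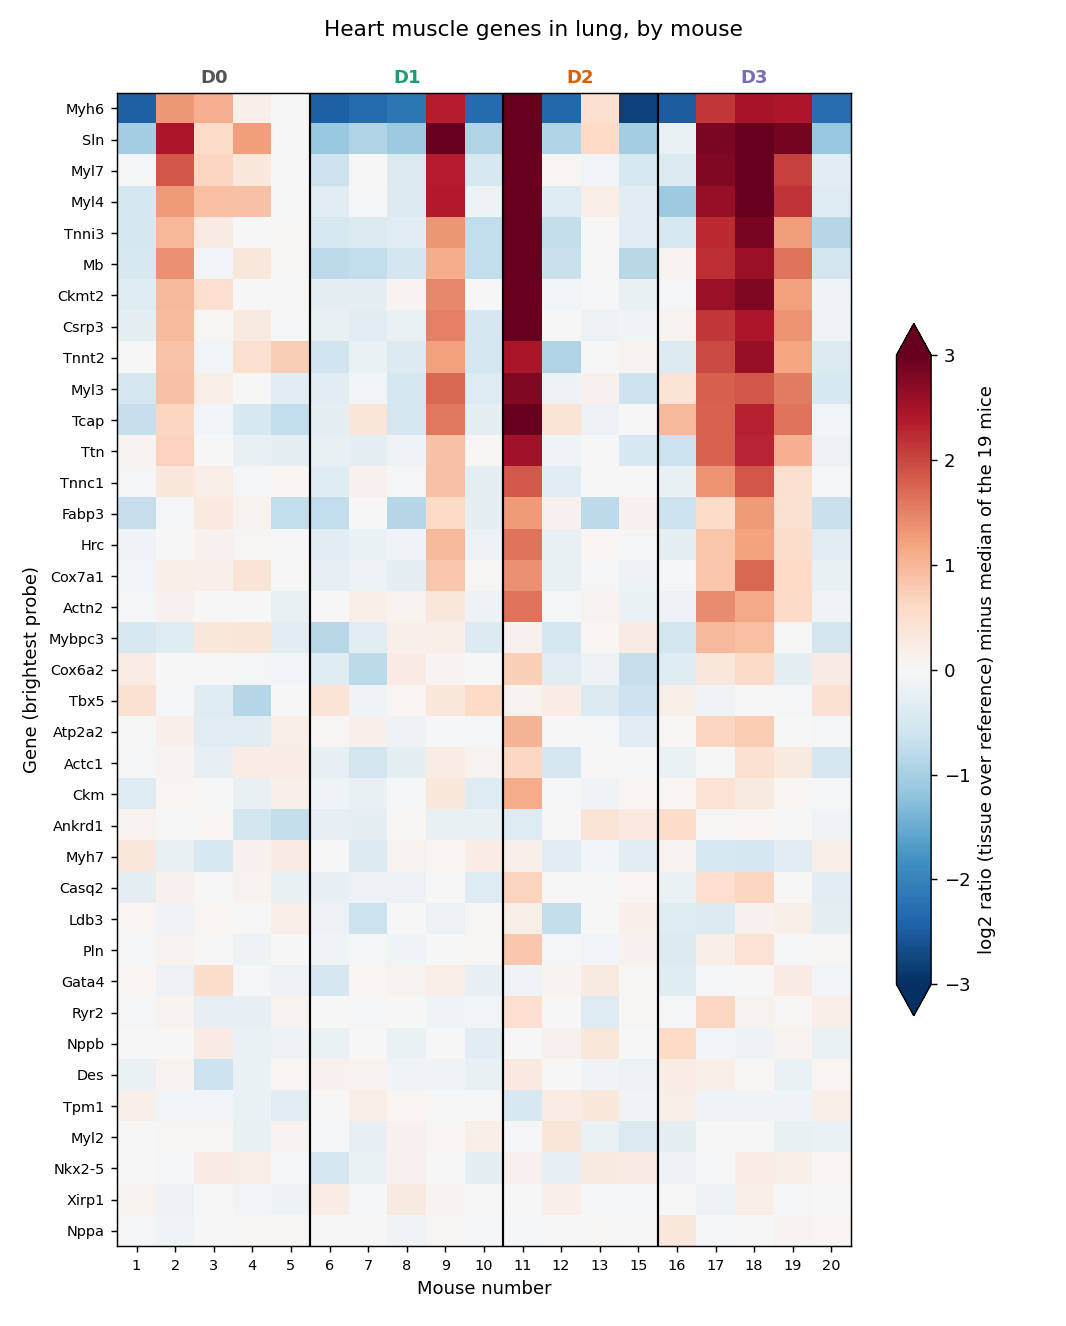
Log2 ratio of each heart muscle gene minus its median over the 19 lungs, 1 column per mouse and 1 row per gene, ordered by residual SD from the highest (Myh6, 2.24) to the lowest (Nppa, 0.09). Vertical lines separate the dose groups, and the colour scale is clipped at 3 units either side. Mice 9, 11, 17, 18 and 19 are high over most upper rows, and the lower rows are near 0 in every mouse.

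Among the thick filament genes, Myh6, the alpha myosin heavy chain, had the widest range. Values below are log2 ratios in order of mouse number, 1 to 5 for D0, 6 to 10 for D1, 11, 12, 13 and 15 for D2, and 16 to 20 for D3. Myh6 stood at 0.40, 4.14, 3.92, 3.00 and 2.84 in the D0 lungs and at 0.40, 0.51, 0.68, 5.19 and 0.52 in the D1 lungs. At D2 Myh6 stood at 5.84, 0.48, 3.32 and 0.05, and at D3 at 0.34, 4.97, 5.31, 5.26 and 0.55. Its 19 values leave a gap between 0.68 and 2.84, and every dose group had lungs on both sides of it. The D3 minus D0 difference was 0.43 ± 1.22 (SE, adjusted p = 0.943 in limma), with a 95% interval from -2.11 to 2.96. Its D1 minus D0 difference was -1.40 ± 1.22 (SE, adjusted p = 0.896 in limma), with 1 of 5 D1 mice above the D0 mean.

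Myl7, the atrial regulatory light chain, followed the same lungs. Myl7 stood at 0.39, 2.29, 1.08, 0.74 and 0.43 in the D0 lungs and at -0.19, 0.43, -0.01, 2.78 and -0.06 in the D1 lungs. At D2 Myl7 stood at 4.48, 0.50, 0.34 and -0.06, and at D3 at 0.01, 3.20, 3.88, 2.48 and 0.08. Mice 11, 18, 17, 9, 19 and 2 held the highest values, and the dose groups overlapped. The D3 minus D0 difference in Myl7 was 0.94 ± 0.83 (SE, adjusted p = 0.75 in limma).

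Myl4, the atrial essential light chain, was well above background on all 19 lung arrays and serves here as the gene against which the others were set. Myl4 stood at -0.07, 1.72, 1.36, 1.33 and 0.45 in the D0 lungs and at 0.14, 0.38, 0.03, 2.83 and 0.30 in the D1 lungs. At D2 Myl4 stood at 4.07, 0.06, 0.65 and 0.10, and at D3 at -0.65, 3.07, 3.94, 2.62 and 0.07. Mouse 16, treated at the highest dose, held the lowest Myl4 value and mouse 11 the highest. Between D3 and D0 it differed by 0.85 ± 0.83 (SE, adjusted p = 0.779 in limma), with 3 of 5 D3 mice above the D0 mean.

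Myl3, an essential light chain of ventricular and slow skeletal muscle, moved with them. Myl3 stood at 0.09, 1.46, 0.79, 0.59 and 0.26 in the D0 lungs and at 0.26, 0.51, 0.07, 2.32 and 0.20 in the D1 lungs. At D2 Myl3 stood at 3.37, 0.44, 0.71 and -0.04, and at D3 at 0.99, 2.39, 2.45, 2.13 and 0.14. High lungs were again those of mice 11, 18, 17, 9 and 19, and the D3 minus D0 difference was 0.98 ± 0.56 (SE, adjusted p = 0.548 in limma). Myl2, the ventricular regulatory light chain, had an r of 0.08 to Myl4 and was well above background on 3 of 19 lung arrays. Myl2 stood at 0.09, 0.10, 0.11, -0.15 and 0.17 in the D0 lungs and at 0.02, -0.17, 0.20, 0.12 and 0.24 in the D1 lungs. At D2 Myl2 stood at 0.04, 0.43, -0.12 and -0.36, and at D3 at -0.19, 0.09, 0.07, -0.16 and -0.12. All Myl2 values lay within 0.43 of 0, and those of mice 11, 17 and 18 were 0.04, 0.09 and 0.07.

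The remaining thick filament genes split the same way. Myh7, the beta myosin heavy chain of slow muscle, was bright and steady, with log2 ratios from 4.19 to 5.03 with a median of 4.70. Ttn, the giant spring protein titin, ranged from -0.76 to 2.40 with a median of -0.11 and was highest in mice 11, 18 and 17. Mybpc3, cardiac myosin-binding protein C, stood between -3.43 and -1.62 and was well above background on 10 lung arrays.

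**Figure D2:**
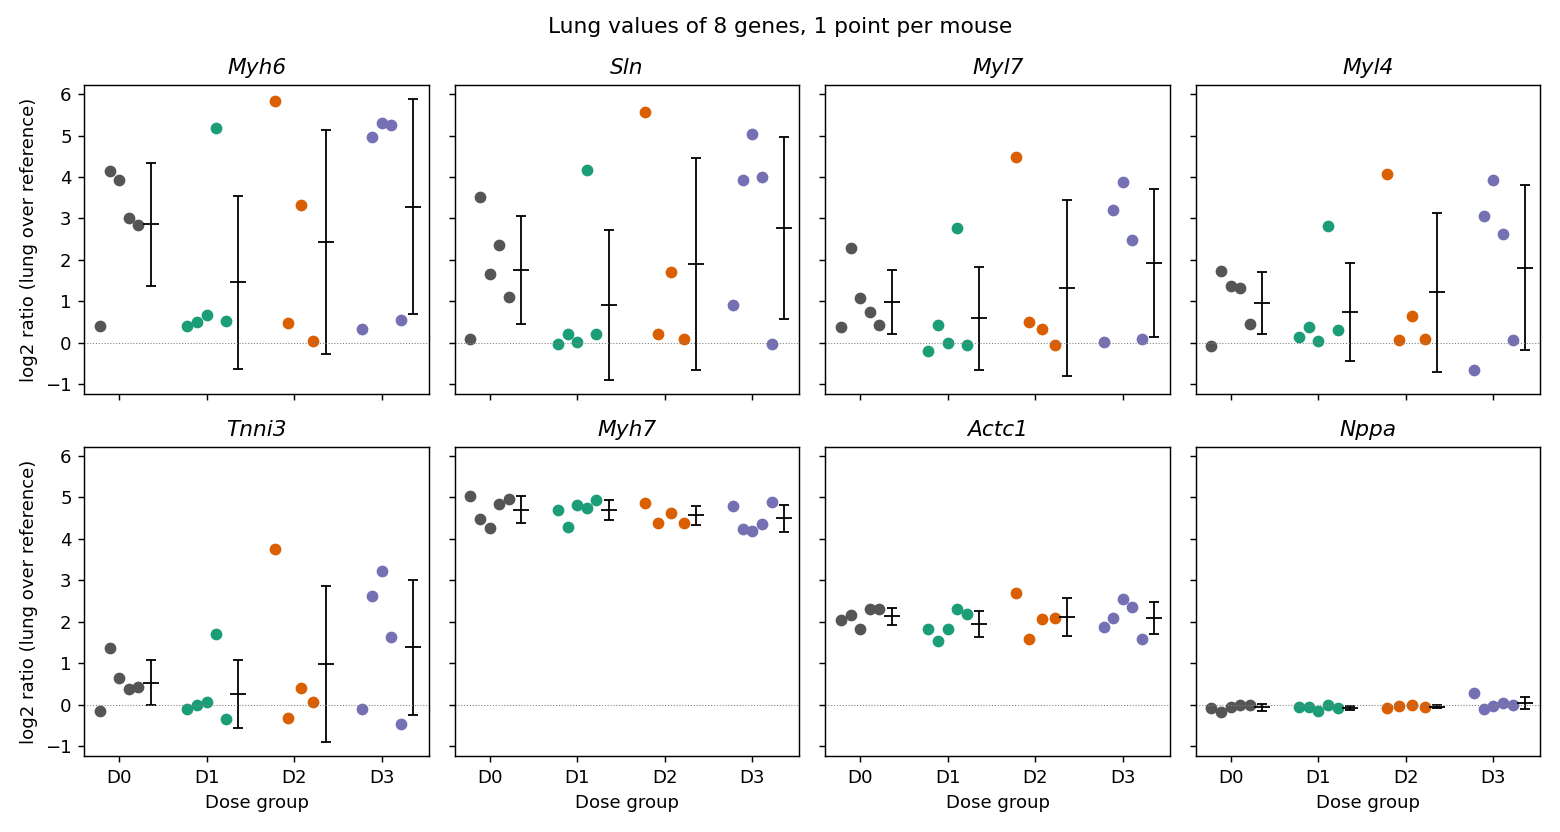
Log2 ratio (lung over reference) of 8 genes by dose group, 1 point per mouse, with the mean and SD of each group as a bar beside the points. Myh6, Sln, Myl7, Myl4 and Tnni3 spread over several units within D1, D2 and D3, whereas Myh7, Actc1 and Nppa keep to narrow bands.

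Of the thin filament genes, Tnni3, the inhibitory troponin subunit of heart muscle, was among the most variable. Tnni3 stood at -0.15, 1.37, 0.63, 0.38 and 0.42 in the D0 lungs and at -0.10, -0.02, 0.07, 1.71 and -0.35 in the D1 lungs. At D2 Tnni3 stood at 3.76, -0.33, 0.39 and 0.07, and at D3 at -0.10, 2.62, 3.23, 1.64 and -0.47. Mouse 11 was highest, followed by mice 18 and 17, and the D3 minus D0 difference was 0.86 ± 0.70 (SE, adjusted p = 0.727 in limma). Tnnt2, the troponin subunit that binds tropomyosin in heart muscle, was well above background on all lung arrays. Tnnt2 stood at -0.39, 0.47, -0.47, 0.09 and 0.34 in the D0 lungs and at -0.98, -0.59, -0.79, 0.84 and -0.91 in the D1 lungs. At D2 Tnnt2 stood at 2.06, -1.30, -0.39 and -0.28, and at D3 at -0.79, 1.58, 2.23, 0.80 and -0.81. Mice 18, 11 and 17 were highest, and the D3 minus D0 difference was 0.59 ± 0.58 (SE, adjusted p = 0.781 in limma). Tnnc1, the calcium-binding troponin subunit, ranged from -0.98 to 1.25 with a median of -0.61, with its highest values in mice 18, 11 and 17.

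Actc1, cardiac alpha actin, was far steadier. Actc1 stood at 2.04, 2.16, 1.83, 2.31 and 2.31 in the D0 lungs and at 1.83, 1.54, 1.82, 2.31 and 2.19 in the D1 lungs. At D2 Actc1 stood at 2.70, 1.57, 2.06 and 2.09, and at D3 at 1.88, 2.08, 2.54, 2.36 and 1.58. Its residual SD was 0.34, mouse 11 was still the highest lung, and the D3 minus D0 difference was -0.04 ± 0.19 (SE, adjusted p = 0.97 in limma). Tpm1, an alpha tropomyosin shared with smooth muscle and other cells, gave an answer that depended on the probe. Its brightest probe ranged from -0.90 to -0.13 with a median of -0.44 and correlated with Myl4 at r = -0.61 over the 19 lungs, whereas its next 2 probes by brightness ranged from -1.31 to 1.10 and from -1.47 to 1.10 and correlated with Myl4 at 0.94 and 0.97. Those 2 probes carry 1 RefSeq accession, and the brightest carries another. The second Myh6 probe, well above background on 4 lung arrays, spanned -0.30 to 1.12 and correlated with Myl4 at 0.81.

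At the Z-disc, Actn2, the muscle alpha actinin that cross-links actin, was above background in 4 lungs. Actn2 stood at -0.06, 0.12, -0.03, -0.02 and -0.23 in the D0 lungs and at -0.01, 0.20, 0.09, 0.32 and -0.17 in the D1 lungs. At D2 Actn2 stood at 1.62, -0.04, 0.09 and -0.21, and at D3 at -0.19, 1.40, 1.13, 0.57 and -0.15. Mice 11, 17, 18 and 19 alone exceeded 0.5. No D0 array had Actn2 well above background, so a bound is given for mean signal, at least 1.32-fold higher at D3. The fitted difference was 0.60 ± 0.30 (SE, adjusted p = 0.472 in limma), with a 95% interval from -0.02 to 1.22 that includes no change. With the background-subtracted Feature Extraction ratio the difference was 2.28. The bound takes no account of the spread between mice, and the D3 values of -0.19 and -0.15 lay within the D0 range. That bound sets the D3 mean Cy5 signal against, on each D0 array, the higher of the probe's own signal and the lowest signal well above background.

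Tcap, which caps titin at the Z-disc, had the lowest p of the members at D3 and is given by mouse for that reason, chosen after its values were seen. Tcap stood at 0.62, 1.96, 1.23, 0.85 and 0.59 in the D0 lungs and at 1.04, 1.69, 0.82, 2.91 and 1.04 in the D1 lungs. At D2 Tcap stood at 4.32, 1.74, 1.14 and 1.32, and at D3 at 2.29, 3.08, 3.65, 2.94 and 1.23. All 5 D3 mice exceeded the D0 mean, and 4 of them, mice 16, 17, 18 and 19, exceeded every D0 mouse. The D3 minus D0 difference was 1.59 ± 0.53 (SE, adjusted p = 0.188 in limma), with a 95% interval from 0.48 to 2.69 and an unadjusted p of 0.00714. With the slide as a block the difference was 1.32 ± 0.49 (SE, adjusted p = 0.175 in limma), and within slides 2, 3, 4 and 5 it was 1.13, 2.09, 2.42 and 0.62.

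Csrp3, a muscle LIM protein, ranged from -0.26 to 3.43 with a median of 0.24, and its highest values were again in mice 11, 18 and 17. Des, the muscle intermediate filament desmin, Ldb3, a Z-disc PDZ protein, Ankrd1, a stress-responsive ankyrin repeat protein, and Xirp1 did not follow Myl4 on their brightest probes, with r of 0.16, 0.29, -0.20 and -0.15 over the 19 lungs. The second Ldb3 probe, well above background on 17 lung arrays, correlated with Myl4 at 0.67. Ankrd1 stood between -1.88 and -0.62.

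Of the calcium-handling genes, Sln, sarcolipin, which inhibits the sarcoplasmic reticulum calcium pump in atrial muscle, had the second largest residual SD of the members. Sln stood at 0.10, 3.53, 1.66, 2.37 and 1.11 in the D0 lungs and at -0.03, 0.21, 0.02, 4.16 and 0.20 in the D1 lungs. At D2 Sln stood at 5.58, 0.20, 1.71 and 0.10, and at D3 at 0.90, 3.94, 5.04, 3.99 and -0.02. Mice 11, 18, 9, 19, 17 and 2 were high, and every dose group also held a lung at 0.10 or lower. The D3 minus D0 difference was 1.01 ± 1.08 (SE, adjusted p = 0.803 in limma). Hrc, a calcium-binding protein of the reticulum, ranged from -0.82 to 1.17 with a median of -0.47 and was highest in mouse 11.

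Ryr2, the calcium release channel, and Pln, phospholamban, the pump inhibitor of ventricular and slow muscle, were each well above background on 3 lung arrays. Ryr2 stood at 0.19, 0.34, -0.01, -0.01 and 0.33 in the D0 lungs and at 0.23, 0.19, 0.23, 0.11 and 0.15 in the D1 lungs. At D2 Ryr2 stood at 0.74, 0.24, -0.15 and 0.27, and at D3 at 0.18, 0.84, 0.34, 0.26 and 0.43. Ryr2 was highest in mice 17 and 11. Pln stood at 0.01, 0.15, 0.04, -0.11 and 0.06 in the D0 lungs and at -0.08, -0.02, -0.09, 0.04 and 0.07 in the D1 lungs. At D2 Pln stood at 0.86, -0.01, -0.04 and 0.17, and at D3 at -0.36, 0.22, 0.47, -0.01 and 0.07. Pln was highest in mice 11 and 18. Casq2, the cardiac calsequestrin, was likewise above background in 3 lungs and ranged from -0.39 to 0.65 with a median of -0.01. Atp2a2, the calcium pump itself, is made in most tissues, stood between 0.79 and 2.12 on its brightest probe, and was highest in mouse 11. That probe correlated with Myl4 at 0.69. Its second probe, also well above background on all 19 lung arrays, stood between -0.43 and 0.29 and correlated with Myl4 at 0.08.

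The natriuretic peptides, hormones released by stretched heart muscle, had r of -0.23 (Nppa) and -0.13 (Nppb) to Myl4. Nppa stood at -0.08, -0.19, -0.07, -0.01 and -0.01 in the D0 lungs and at -0.05, -0.07, -0.15, -0.02 and -0.08 in the D1 lungs. At D2 Nppa stood at -0.09, -0.04, -0.01 and -0.07, and at D3 at 0.27, -0.11, -0.03, 0.03 and 0.00. Nppa, the atrial peptide, lay within 0.27 of 0 in every lung, mice 11, 17 and 18 included, and was well above background on 8 arrays. Nppb stood at -0.49, -0.49, -0.25, -0.69 and -0.65 in the D0 lungs and at -0.69, -0.47, -0.68, -0.48 and -0.82 in the D1 lungs. At D2 Nppb stood at -0.47, -0.35, -0.15 and -0.51, and at D3 at 0.10, -0.58, -0.65, -0.39 and -0.68. The highest Nppb and Nppa values were both in mouse 16, which had low Myl4.

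Energy supply genes varied with the sarcomere genes. Mb, myoglobin, ranged from -0.43 to 3.48 with a median of 0.40, and Ckmt2, the mitochondrial creatine kinase of striated muscle, ranged from -0.11 to 3.60 with a median of 0.26. Cox7a1, a muscle isoform of a cytochrome oxidase subunit, and Fabp3, the heart fatty acid-binding protein, were above background in all lungs and spanned -0.52 to 1.47 and -1.52 to 0.61. Ckm, the cytosolic creatine kinase of muscle, and Cox6a2, another muscle oxidase subunit, moved less, with residual SDs of 0.33 and 0.41, where Ckm was well above background on 4 lung arrays.

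The heart transcription factors Nkx2-5, Tbx5 and Gata4 correlated with Myl4 at r of 0.37, -0.15 and 0.22 over the 19 lungs. Nkx2-5, a homeobox factor of heart muscle, was above background on 6 lung arrays. Nkx2-5 stood at -0.74, -0.79, -0.49, -0.56 and -0.79 in the D0 lungs and at -1.25, -0.95, -0.62, -0.76 and -1.01 in the D1 lungs. At D2 Nkx2-5 stood at -0.62, -0.98, -0.46 and -0.50, and at D3 at -0.89, -0.78, -0.52, -0.57 and -0.67. Its D1 minus D0 difference was -0.24 ± 0.12 (SE, adjusted p = 0.764 in limma), with 1 of 5 D1 mice above the D0 mean. Tbx5, a T-box factor also made in lung mesenchyme, was bright and steady, from 2.13 to 3.60 with a median of 2.99. Its D1 minus D0 difference was 0.42 ± 0.20 (SE, adjusted p = 0.764 in limma), with 5 of 5 D1 mice above the D0 mean. Gata4 stood between -1.28 and -0.25.

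Over the 19 lungs 17 of the other 36 members correlated with Myl4 at r of 0.8 or more, and 7 correlated negatively. The highest were Myl7 at 0.97 (rho = 0.82), Tnni3 at 0.96 (rho = 0.90), Sln at 0.96 (rho = 0.88), Cox7a1 at 0.95 (rho = 0.88), Hrc at 0.95 (rho = 0.87) and Ckmt2 at 0.95 (rho = 0.82). Myh6 reached 0.93 (rho = 0.91). After each dose mean was removed 17 members were again at 0.8 or more, and without the 2 lungs farthest from the Myl4 median, 13. These correlations are descriptions over 19 mice, and the arrays share slides and the reference RNA.

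Promoter sequence, the 250 bases before the RefSeq start on GRCm38.p6, is shown for 4 members that cover the patterns above. Myl7 and Tnnt2 varied together, Casq2 was dim but highest in the same lungs, and Nppb did not follow them. Capitals mark matches to TATAAA, to AGATAA (letters of a GATA factor site) or to CTAAAAATA (letters of a MEF2 factor site), searched on both strands, and no printed match overlaps another. Promoters carry no coordinate of the array files, which name an older build.
Myl7 (chr11:5898783-5899032, minus strand): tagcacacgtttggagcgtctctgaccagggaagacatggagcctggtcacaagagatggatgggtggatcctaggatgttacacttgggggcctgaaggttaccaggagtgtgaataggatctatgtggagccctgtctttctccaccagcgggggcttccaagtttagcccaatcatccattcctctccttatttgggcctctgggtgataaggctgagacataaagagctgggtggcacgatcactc
Tnnt2 (chr1:135836084-135836333, plus strand): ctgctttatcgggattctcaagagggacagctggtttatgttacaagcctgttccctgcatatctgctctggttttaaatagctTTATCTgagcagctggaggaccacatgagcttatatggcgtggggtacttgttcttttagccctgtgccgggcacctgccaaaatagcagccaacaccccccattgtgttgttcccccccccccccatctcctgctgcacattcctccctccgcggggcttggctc
Casq2 (chr3:102086165-102086414, plus strand): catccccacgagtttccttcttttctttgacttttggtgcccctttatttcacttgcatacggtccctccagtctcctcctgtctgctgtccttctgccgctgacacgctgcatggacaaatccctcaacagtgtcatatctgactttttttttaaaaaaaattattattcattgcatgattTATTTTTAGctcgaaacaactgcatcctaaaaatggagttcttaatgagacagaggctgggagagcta
Nppb (chr4:147985650-147985899, plus strand): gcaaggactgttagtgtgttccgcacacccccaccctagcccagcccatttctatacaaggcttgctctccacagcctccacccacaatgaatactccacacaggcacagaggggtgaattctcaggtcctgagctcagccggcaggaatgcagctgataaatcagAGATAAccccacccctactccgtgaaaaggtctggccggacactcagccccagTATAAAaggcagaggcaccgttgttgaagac

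Promoter entries existed for 31 of the 38 listed genes, 38 entries in all. In Tnnt2 the AGATAA match lay on the reverse strand 166 to 161 bases before the start, in Casq2 the CTAAAAATA match lay on the reverse strand 68 to 60 bases before it, and in Nppb TATAAA lay 31 to 26 and AGATAA 84 to 79 bases before it. The printed Myl7 window held none of these letters. AGATAA was found in 7 of the 38 member entries and in 9.99% of all 32851 promoter entries, TATAAA in 4 against 12.4%, and CTAAAAATA in 1 against 0.469%. A match of letters is not a binding site.

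Outside the list, the genes whose lung pattern was most like that of the members were ranked by Pearson r over the 19 lungs with the mean log2 ratio of the 15 members above background in all lungs, among 15089 genes above background on at least 4 lung arrays. The first were Myoz2, a Z-disc protein, at 0.97, Mybphl, a myosin-binding protein of atrial muscle, at 0.97, Myom2 at 0.94, Myl1 at 0.91 and Mapk10 at 0.90. Eno3 at 0.90, Cox8b at 0.87, Pgam2 at 0.86, Fndc5 at 0.85, Srl at 0.85, Hamp at 0.83, Rbfox1 at 0.82, Mhrt at 0.82 and Slc2a4 at 0.78 were also among the first 15. Myoz2 reached 2.71 in mouse 11, 1.98 in mouse 18 and 1.67 in mouse 17, against -0.31 to 0.35 in the lungs of mice 1, 6, 8, 10, 12, 13, 15, 16 and 20. None of the 15 was called at D3 by limma, with adjusted p from 0.287 to 0.941.

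Markers of other muscle were read in the same lungs. Of 14 skeletal muscle genes, 7 were well above background on no lung array, among them the fast myosin heavy chains Myh1, Myh2 and Myh4. The others were detected, Tnni2 and Pvalb on all 19 lung arrays, Acta1 on 18 and Tnnc2 on 16. Tnnt3 and Atp2a1 were detected on 13 each and Neb on 6. The mean of the skeletal list stood between -0.63 and -0.28 in every lung, with r = 0.08 to Myl4. The 8 smooth muscle genes averaged 0.49 to 1.73, with r = 0.05 to Myl4. Of 4 further atrial genes, Mybphl followed Myl4 at r = 0.92, and Kcnj5 was highest in mice 11 and 18. Kcnj3, above background on 1 lung array, stood at -0.07, 0.07 and 0.01 in mice 11, 18 and 17. Bmp10 stood at 0.21, 0.32 and 0.59 in them, and at 0.43 and 0.45 in mice 12 and 16. The list mean correlated with Myl4 at r = 0.81 (rho = 0.59). It ranged from -0.02 to 0.35 at D0, -0.12 to 0.26 at D1, while D2 lungs held 0.02 to 0.74 and D3 lungs 0.12 to 0.64. The 3 further ventricular genes, Irx4, Kcnip2 and Hey2, averaged -0.10 to 0.34, with r = 0.27. Irx4, Kcnip2 and Hey2 were well above background on 10, 1 and 3 lung arrays, so this r rests largely on dim probes. The mean of the ventricular members Myl2, Myl3 and Myh7 correlated with Myl4 at 0.86, where the single genes gave 0.08, 0.93 and -0.37. Of 28 further heart muscle genes 4 were above background on no lung array, and the mean of all 28 ranged from -0.23 to 0.44, with r = 0.89. That list includes Myoz2, Myom2, Pgam2 and Eno3, already ranked above by likeness to the members, and not all of it rose with them. Smyd1 and Nexn, above background on all 19 lung arrays, stood at -0.58 and 0.86 in mouse 11. Over all lungs Smyd1 ranged from -0.76 to -0.29 and Nexn from 0.72 to 1.21. Lists for fat, red blood cells, cartilage, autonomic neurons and mesothelium correlated with Myl4 at 0.18, 0.02, 0.03, 0.18 and -0.27. The part of any tissue that adjoins the sampled lobe in these values was not tested.

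No heart muscle gene was called in lung at any dose, where a call needed a Benjamini-Hochberg adjusted p of at most 0.05 in limma and a change of at least 1.5-fold. At D1 against D0 limma called 0 of 37, against 0.14% of all probes, at D2 0 of 37 against 0.264%, and at D3 0 of 37 against 0.639%. The shares are so small that 0 called members is not a result about them. At an unadjusted p under 0.05 were 2, 0 and 1 members at D1, D2 and D3, against 6.53%, 8.05% and 11.3% of all probes. Median differences over the members were -0.04, 0.16 and 0.32 at D1, D2 and D3, against 0.00 for all probes at each dose. Positive differences were seen for 13, 30 and 31 of 37 members, against 50.8%, 50.5% and 49.8% of all probes at D1, D2 and D3. In forestomach they were seen for 23, 31 and 17 of 37 members at those doses. Many members varied together, so these are not counts of independent genes. In lung no member's D1, D2 or D3 values lay wholly outside its D0 values, which was so for 1.36%, 2.65% and 3.12% of all probes. At D3 in lung all 4 measured mesothelium markers and all 4 measured red blood cell markers had a negative difference. Their medians were -0.79 and -0.30, with 0 called by limma. At D1 and D2 the mesothelium medians were -0.47 and -0.36, and the red blood cell medians 0.06 and -0.09. The mesothelium list mean was 0.47 in mouse 1 of D0, against -1.92 to -0.69 in the other D0 lungs. The part of these 2 lists in the members' differences was not tested.

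**Figure D3:**
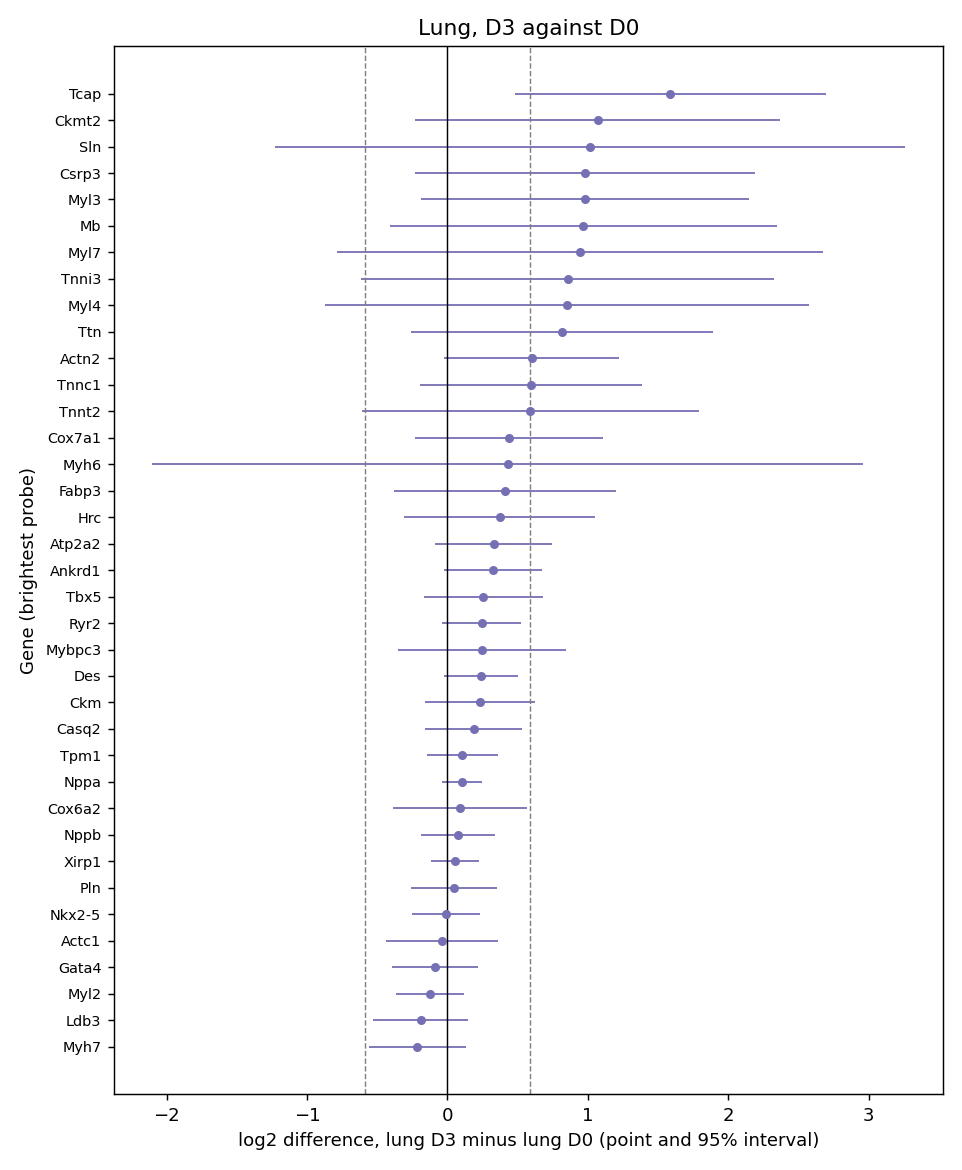
Log2 difference between D3 and D0 lungs for each heart muscle gene, with its 95% interval from limma, ordered by size. The solid line is 0 and the dashed lines are changes of 1.5-fold. Intervals of the variable genes are several units wide (Myh6 from -2.11 to 2.96), and Tcap alone has an interval that does not reach 0.

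The 4 dose groups were spread over 5 slides, and the column of an array on its slide followed dose for 18 of the 19 lungs, the exception being mouse 1 of D0, which lay in the column used for D2. With the slide as a block the D3 minus D0 difference was 0.64 for Myl4, 0.69 for Myl7, 0.60 for Sln, 0.59 for Tnni3 and 0.10 for Myh6, each with an adjusted p of 0.755 or more in limma. Within slides 2, 3 and 4, each with 1 D3 and 1 D0 mouse, Myl4 was higher at D3 by 1.34, 1.29 and 2.58, and within slide 5, with 1 D3 and 2 D0 mice, the difference was -0.12. Slide 1 held no D0 lung.

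The forestomach gave the comparison tissue, an organ lined by squamous epithelium over smooth muscle. Between the tissues 17 of the 37 members were called, 8 higher in lung, against 9.13% of all probes, and 9 higher in forestomach, against 8.29%. The 19 lungs and the forestomachs did not overlap for 3 members higher in lung, against 5.55% of all probes, and for 3 higher in forestomach, against 4.34%. Lung arrays lay in row 1 of every slide and forestomach arrays in row 2, so row and tissue cannot be told apart. Leaving out mice 8 and 12, whose forestomachs held skeletal muscle markers, gave 12 higher and 9 lower, a setting chosen after seeing the data. With median centring instead of loess the split was 8 higher and 6 lower.

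Higher in lung were Myh7, 4.62 ± 0.28 (SD, n = 19) against 0.92 ± 1.04 (SD, n = 18), a difference of 3.68 ± 0.25 (SE, adjusted p = 1.27e-14), and Tbx5, 3.00 ± 0.38 (SD, n = 19) against -0.04 ± 0.30 (SD, n = 18), a difference of 3.02 ± 0.10 (SE, adjusted p = 7.3e-23). No forestomach reached the lowest lung for either gene, nor for Ankrd1, where the difference was 2.05 ± 0.14 (SE, adjusted p = 2.49e-14). Myl4 was higher in lung by 2.43 ± 0.35 (SE, adjusted p = 4.52e-07) and Myh6 by 2.49 ± 0.52 (SE, adjusted p = 0.00013), each with the mouse-to-mouse spread given above. In forestomach Myh6 kept between -0.15 and 0.40 in 17 mice, its value in mouse 9 having been dropped as an outlier spot, and Myl4 ranged from -2.03 to -0.22 with a median of -1.28. On the second Myh6 probe, well above background on 4 lung arrays, the tissue difference was 0.13 (adjusted p = 0.221 in limma) and was not called. Actc1 and Cox6a2 were higher in lung by 1.79 ± 0.24 (SE, adjusted p = 1.17e-07) and 3.34 ± 0.28 (SE, adjusted p = 3.27e-12). For Tcap the difference was 1.05 ± 0.35 (SE, adjusted p = 0.0127), and without mouse 11 it was 0.79 and no longer called.

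Members called higher in forestomach included Des, Tpm1 and Casq2, which smooth muscle also makes. Des stood at 4.62 ± 0.44 (SD, n = 18) there and at 0.77 ± 0.22 (SD, n = 19) in lung, a difference of -3.85 ± 0.12 (SE, adjusted p = 1.54e-24). Tpm1, on its brightest probe, differed by -2.75 ± 0.09 (SE, adjusted p = 4.16e-23), and Casq2 by -1.61 ± 0.14 (SE, adjusted p = 4.42e-12), and for all 3 the groups did not overlap. Taking the mean of all 5 Tpm1 probes gave -0.58, just short of the 1.5-fold threshold, which was not called. The other Tpm1 probes, in order of brightness, differed by 0.25, 0.16, -0.04 and -0.53. For Ldb3, not called on its brightest probe at -0.40, the second probe differed by -1.61 (adjusted p = 1.67e-09 in limma). The 8 smooth muscle markers were all called higher in forestomach, with a median difference of -2.87. Their part in the members' tissue differences was not tested.

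Ckm, Gata4 and Pln were also called higher in forestomach, with lung minus forestomach differences of -1.48 ± 0.22 (SE, adjusted p = 5.28e-07), -1.82 ± 0.29 (SE, adjusted p = 1.99e-06) and -0.90 ± 0.15 (SE, adjusted p = 3.57e-06). Fabp3, Cox7a1 and Myl7 differed by -1.79 ± 0.47 (SE, adjusted p = 0.00163), -1.25 ± 0.38 (SE, adjusted p = 0.00666) and -1.18 ± 0.41 (SE, adjusted p = 0.0176), and these 3 calls were lost with median centring, at -1.16, -0.66 and -0.66. Pln, Casq2 and Ckm were dim in lung, well above background on 3, 3 and 4 of 19 arrays, and with the background-subtracted Feature Extraction ratio their differences were -3.58, -4.21 and -3.92. Of the 4 atrial members Myl7 was the one called higher in forestomach, and Myl4 the one called higher in lung. In forestomach Myl7 ranged from 0.70 to 4.67 with a median of 2.33 and was well above background on all 19 forestomach arrays.

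**Figure D4:**
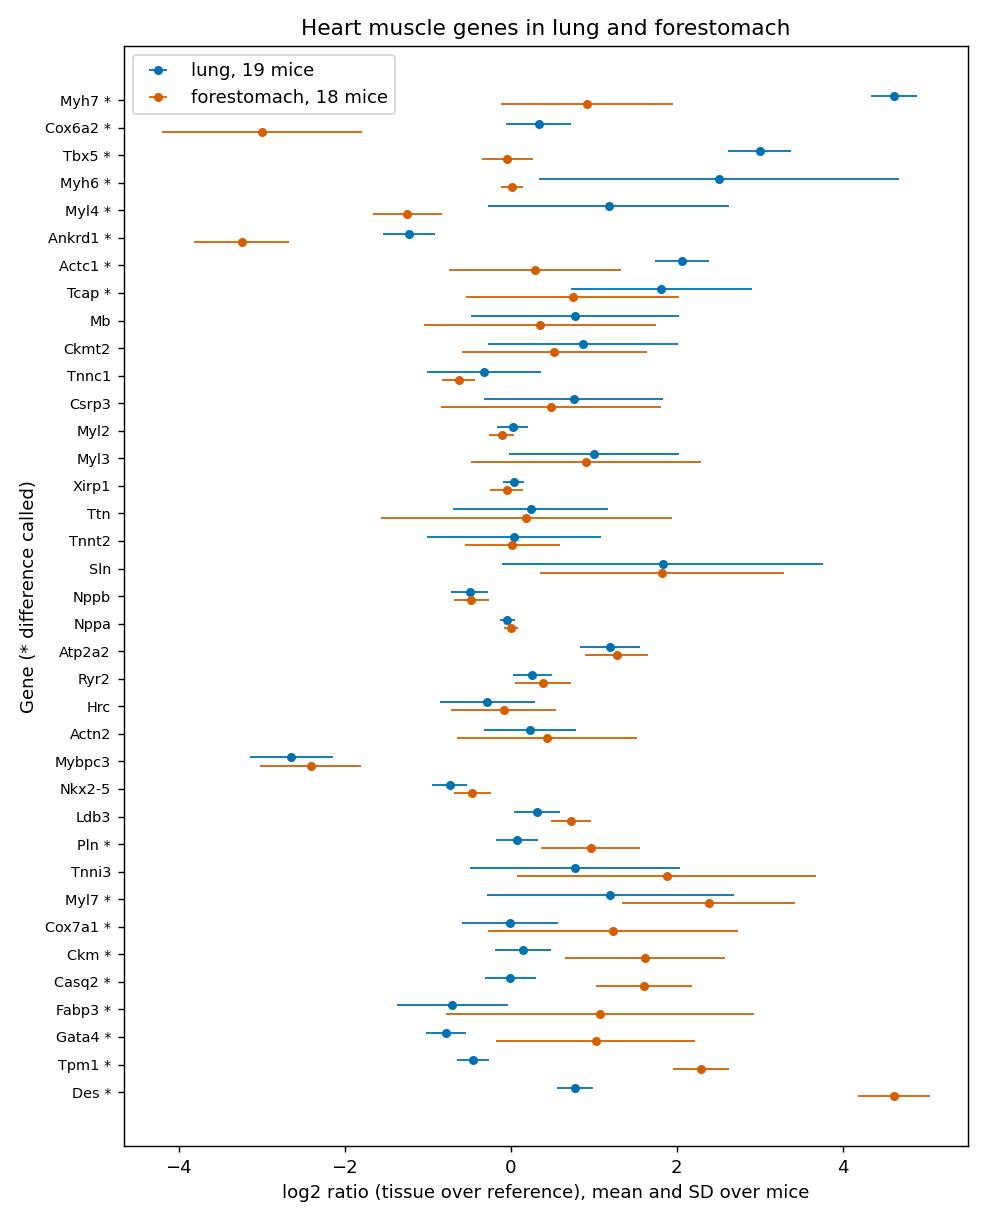
Mean log2 ratio and SD over mice for each heart muscle gene in lung (19 mice) and forestomach (18 mice, 17 for Myh6), ordered by the difference, with an asterisk at the 17 genes called. Des and Tpm1 stand well to the right in forestomach, Myh7 and Tbx5 in lung, and Myh6, Sln, Myl7 and Myl4 have the longest lung bars.

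In forestomach a different set of members varied between mice, in 2 separate patterns. In the first, mice 8 and 12 stood apart. Ttn was 3.94 and 5.87 in those mice and between -0.77 and -0.12 on the other arrays. Mb was 4.09 and 4.24, Actn2 2.18 and 4.27, Csrp3 3.38 and 4.69, Tcap 3.67 and 4.57, Myl3 4.55 and 4.37 and Sln 5.35 and 5.39. Myh6 was -0.12 and 0.40 in them. Myl7 was 2.94 and 1.24, within its range over the other mice. The same 2 forestomachs held the skeletal markers Myh1 at 5.18 and 5.27 and Tnnc2 at 4.48 and 4.47. The other arrays stayed at or below 0.15 for Myh1 and -0.49 for Tnnc2. The mean of the 14 skeletal genes was 2.41 and 3.28 in those 2 forestomachs, against 0.05 to 0.53 on the other arrays. Not all of the list was high, with Myh4 at 0.28 and 0.14 and Mylpf at 0.41 and 1.44. Myh2 was 2.14 in mouse 8, within its range on the other arrays, and 5.81 in mouse 12. Over 18 mice 11 of the other 36 members correlated with Ttn at 0.8 or more, and without those 2 mice 0 did.

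In the second pattern Tnni3, Fabp3, Cox7a1 and Myh7 followed Gata4, a factor also made in glandular stomach epithelium, at r of 0.96, 0.98, 0.95 and 0.96 over 18 mice. Tnni3 stood at 5.15, -0.48, 2.49, 1.57 and -0.26 in the D0 forestomachs. Over all doses mice 1, 7, 10, 12 and 19 were between 3.69 and 5.15, and mice 2, 5, 8, 9 and 15 were between -0.48 and -0.03. A list of 9 glandular stomach genes, chosen after these values were seen, averaged 0.36 to 0.84 on the arrays of mice 2, 5, 8, 9 and 15 and 4.59 to 6.53 on those of the other mice apart from mouse 18, whose 2 arrays gave 0.91 and 6.11. It correlated with Gata4 at 0.87, Fabp3 at 0.88, Tnni3 at 0.84 and Myl7 at -0.41. In lung the list stayed between 0.02 and 0.35. Its part in the tissue differences above was not tested.

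**Figure D5:**
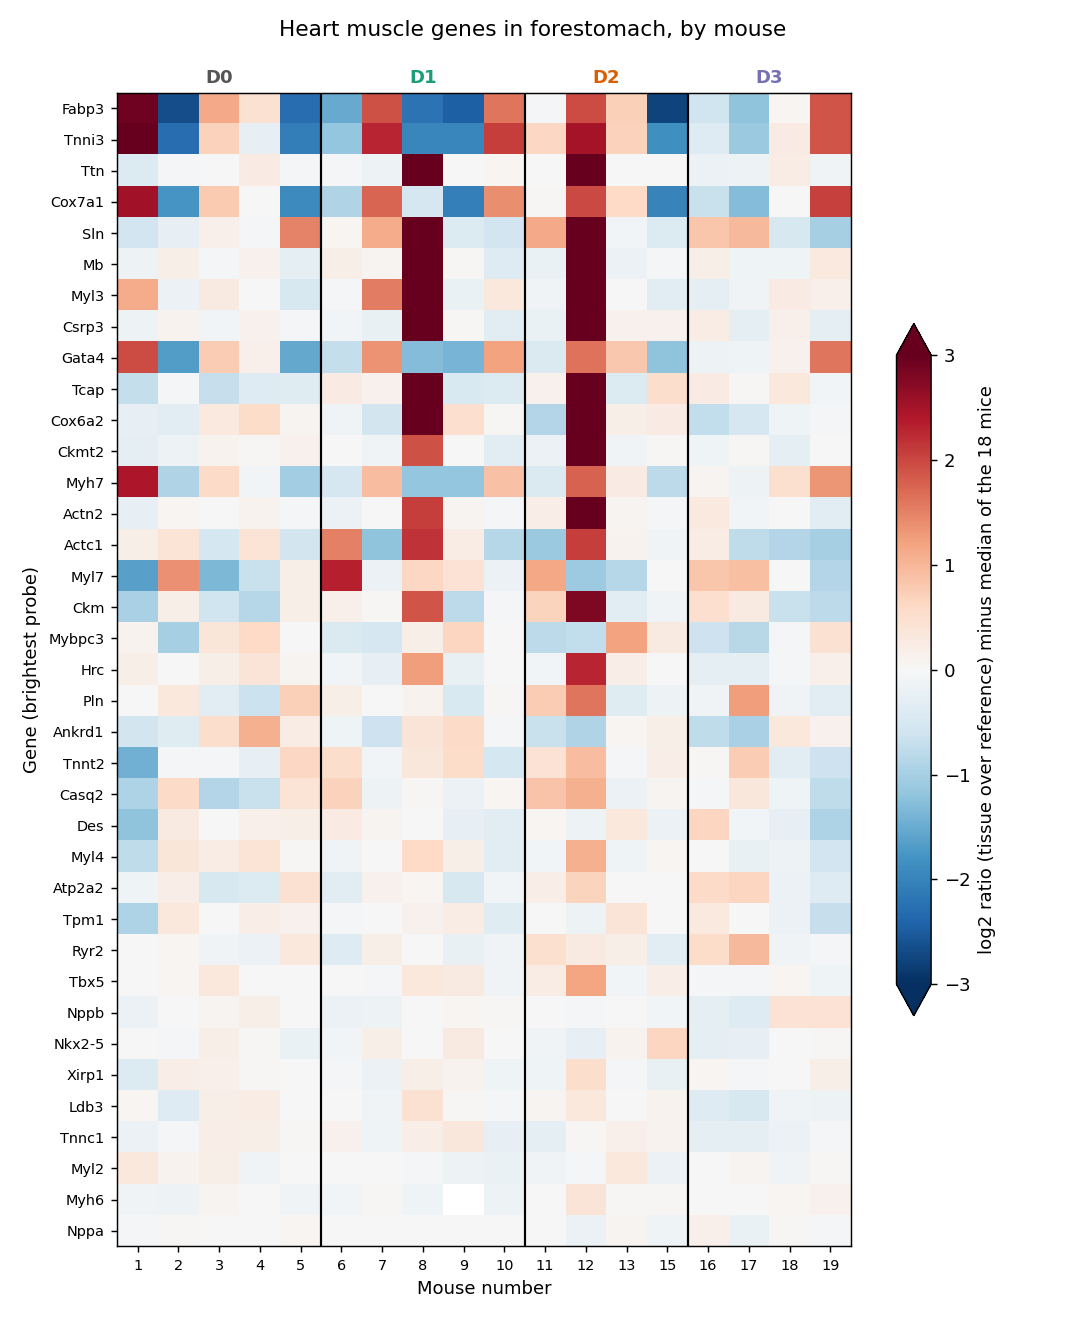
Log2 ratio of each heart muscle gene minus its median over the 18 forestomachs, 1 column per mouse and 1 row per gene, ordered by residual SD, with the colour scale clipped at 3 units either side and the emptied Myh6 value of mouse 9 left white. Mice 8 and 12 are high for Ttn, Sln, Mb, Myl3, Csrp3 and Tcap, and Fabp3, Tnni3, Cox7a1, Gata4 and Myh7 share another order of mice.

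Dose made no called difference in forestomach for these genes. By limma 0 of 37 were called at D1, 0 at D2 and 0 at D3, against 0% of all probes at each dose. At an unadjusted p under 0.05 were 0, 1 and 1 members, against 4.32%, 3.12% and 3.58% of all probes. Those were Casq2 at D2, with 0.75 ± 0.34 (SE, adjusted p = 1), and Ldb3 at D3, with -0.31 ± 0.13 (SE, adjusted p = 0.9999). The lung response at D3 minus the forestomach response was called for 0 of 37 members by limma, against 0.172% of all probes. At an unadjusted p under 0.05 was 1 member, Ankrd1, against 5% of all probes. For Ankrd1 it was 0.82 ± 0.40 (SE, adjusted p = 0.995). The lung and forestomach of 1 mouse correlated weakly for Myl4, Myh6 and Sln, with r of -0.18, 0.08 and -0.31 over 18 mice. For Myh6 it was 17 mice, without mouse 9.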

How the data were processed

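RNA from lung and forestomach was hybridised on 2-colour Agilent whole-genome arrays, tissue RNA in Cy5 and a universal mouse reference RNA in Cy3, with no dye swap. Median spot intensities were deposited by the authors as written by Agilent Feature Extraction 10.7.3.1, with its log10 ratio of red over green, and a table of log2 ratios made by the authors with LOWESS and no background correction. Here the median intensities were normalised within each array by loess without background correction, control spots were left out, 372 values marked as outlier spots were emptied, and spots of a probe were averaged to 55681 probes. Groups came from the sample labels, which name each mouse. The precision is limited by 4 or 5 mice per group.

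Differences were tested in limma 3.58.1 (R 4.3.3) across all probes, with 1 fit over the 4 dose groups per tissue, 1 fit over both tissues for the tissue difference and the interaction, and Benjamini-Hochberg adjustment. limma stood in place of the MAANOVA test of the study's methods. The members and lists were chosen with earlier results of these data known. Per-mouse values were given for 15 members fixed by name and for Tcap, and the 15 most similar genes were ranked by correlation, of which 1 is not reported here. Scripts were tested on simulated data. The labels give the same mouse number to lung and forestomach of 1 animal, and the consensus correlation between them was 0.130. Alternatives were the slide or scan day as a block, the mouse as a block, median centring, normexp background correction, the Feature Extraction ratio, the deposited table, a filter on dim probes (above background on at least 4 arrays), the mean of all probes of a gene, single arrays of mouse 18, fits of the compared groups alone, and each mouse left out. Promoters came from RefSeq on GRCm38.p6, and 31 of the 38 genes matched.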

Additional observations from a re-analysis of the deposited data

Results flagged for a closer look

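In 64 dose groups of 16 members in lung, 11 held a mouse far from the others of its group, where chance gives about 1 in 20. In D1 it was always mouse 9, highest for Myh6 at 5.19, Tnnt2 at 0.84, Tnni3 at 1.71, Myl7 at 2.78, Myl4 at 2.83, Sln at 4.16 and Myl3 at 2.32. In D2 it was always mouse 11, highest for Actn2 at 1.62, Myl7 at 4.48 and Myl4 at 4.07. These genes are correlated, so these outlying values are not independent of each other. In D0 mouse 4 was lowest for Myl2, at -0.15, on a probe near background. No mouse of D3 stood apart in this way, and 3 of its 5 lungs were high.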

How the results depend on the processing

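In lung, in forestomach and for the difference of their D3 responses, 0 members were called by limma under every alternative run. For lung minus forestomach the count of 17 ranged from 14 (median centring) to 21 (Feature Extraction ratio, and without mice 8 and 12, a setting chosen after seeing the data), and from 17 to 18 with each mouse left out. With the mouse as a replicate block, fixed or random, it was 17 and 17, and the interaction count 0 and 0. The median residual SD of the members in lung was 0.638 with median centring and 0.922 with the Feature Extraction ratio, where that of all probes was 0.234 and 0.380, and 0.365 to 0.428 with each mouse left out. The D3 minus D0 difference turned sign for Actc1 with median centring (0.304), and for Myh6 (-0.031), Myl7 (-0.297) and Sln (-0.026) with the Feature Extraction ratio; the cause was not tested. With each mouse left out it ranged from -0.152 to 0.087 for Actc1, from -0.188 to 1.164 for Myh6, 0.319 to 1.467 for Myl4, 0.457 to 1.425 for Myl7, 0.185 to 0.945 for Tnnt2, 0.395 to 1.319 for Tnni3 and 0.448 to 1.712 for Sln, none of them called. Over all probes the lung calls were 78, 147 and 356 at D1, D2 and D3, against 0, 5 and 16 with median centring. At D1 and D2 they were 131 and 242 with the slide block and 160 and 225 with the Feature Extraction ratio, and at D2 93 without mouse 12. For the interaction they were 96, against 183 with the slide block, 191 with the scan day, 2 with median centring, 43 without mouse 4 or mouse 16, 58 without mouse 17 and 61 without mouse 2, and for the tissues 9701, against 17540 with the Feature Extraction ratio. Dim probes, where signal was near background, limit Myl2, Ryr2, Pln, Casq2, Actn2 and Ckm, each well above background on at most 4 lung arrays.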

Other observations

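The 2 forestomach arrays of mouse 18 correlated at r = 0.773 over all probes, where other forestomach arrays of 1 dose group correlated at 0.659 to 0.966 with a median of 0.86. They differed for Tnni3, at -0.26 and 4.35, and for Fabp3 and Gata4 in the same direction, with the glandular stomach list at 0.91 and 6.11. With the first or the second array alone, the count of members called between the tissues was 17 or 18.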
